A study of Mus musculus with 24 samples.

Results

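The cytosolic ribosomal protein genes were examined in mouse cochleae from P3 to P60, in wild type mice and in α9−/− mice. A gene was taken when its only symbol in the array annotation was Rpl or Rps followed by a number, with or without 1 letter, or was Rplp0, Rplp1, Rplp2 or Rpsa. Each gene was read at the probe set with the highest mean signal over all arrays. The rule found 46 genes among 18193 singly named genes, of which 22 encode proteins of the small subunit and 24 proteins of the large subunit. Another 28 genes of the same naming pattern were present only on probe sets that also name other genes, and their signals were not used here.

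Total RNA was measured on 24 Affymetrix mouse genome arrays, 3 for each of 8 groups made of 4 ages (P3, P7, P13 and P60) and 2 genotypes. Per the labels, each array held the cochleae of 3 to 5 pooled mice, so a replicate is a pool. The paper describes pools of more cochleae at P3 and P7 than at P13 and P60, so pool size went with age. The α9−/− mice lack the α9 subunit of the nicotinic acetylcholine receptor in the whole body, not in the cochlea alone. Both genotypes shared a background of 129S6 and CBA/CaJ with at least 7 generations of backcrossing. In bulk tissue of this kind, fewer cells of a type and less RNA per cell cannot be told apart.

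The cytosolic ribosome joins amino acids into protein on cytoplasmic mRNAs. Its small subunit reads the mRNA, its large subunit forms the peptide bond, and an acidic stalk on the large subunit recruits the elongation factors. Ribosomal protein mRNAs are among the most abundant in growing cells, and many begin with a C and a run of pyrimidines that ties their translation to mTOR signaling. A few genes are paralogs used in 1 or a few tissues, such as Rpl3l in striated muscle and Rpl39l in the male germ line.

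The start sites of 40 of the 46 genes were listed in RefSeq (GRCm38.p6). The start base was C followed by at least 4 pyrimidines in 8 of 40 (20%), against 2.17% of 17492 protein-coding promoters. A pyrimidine run of at least 8 bases lay within 15 bases of the start in 17 of 40 (42.5%), against 11.7% of all promoters. CCGGAAG, a sequence of the kind that ETS factors bind, was searched on both strands of the 300 bases around the start and stood in 50% of the genes and in 11.9% of all promoters. AAGATGGCG, of the kind that YY1 binds, was searched in the same way and stood in 5% and 1.94%, while TATAAA within 50 bases before the start stood in 0 of 40 genes and in 3.55% of all promoters. The windows of 30 bases, 15 before the start and 15 from it on, are printed for genes that the results below turn on, with the longest pyrimidine run in capitals. The first 4 were called lower at P60 than at P3 in both genotypes, the next 3 were called in neither, and the last was called higher in both.
Rplp0 (chr5:115559452-115559481, plus strand): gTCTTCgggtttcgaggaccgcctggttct
Rps19 (chr7:24884577-24884606, plus strand): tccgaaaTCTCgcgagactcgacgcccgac
Rpl11 (chr4:136053379-136053408, minus strand): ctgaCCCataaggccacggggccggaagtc
Rpl14 (chr9:120571502-120571531, plus strand): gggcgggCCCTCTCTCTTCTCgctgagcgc
Rpl13a (chr7:45128731-45128760, minus strand): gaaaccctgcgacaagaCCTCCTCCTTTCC
Rpl38 (chr11:114668565-114668594, plus strand): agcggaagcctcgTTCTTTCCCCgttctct
Rps24 (chr14:24490663-24490692, plus strand): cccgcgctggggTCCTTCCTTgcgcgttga
Rpl3l (chr17:24727811-24727840, plus strand): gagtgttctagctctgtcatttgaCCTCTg
The runs measured 5, 4, 3 and 14 bases in the first 4 genes and 13, 10 and 9 in the next 3. Over all genes with a listed start, a run of at least 8 stood in 2 of 11 genes lower in both genotypes, in 8 of 23 genes lower in at least 1 genotype and in 9 of 16 genes called in neither, which is a description of annotated starts and was not tested. These calls were made on values normalized by quantiles over all arrays. On the values as deposited, 30 of the 46 genes were called lower in wild type and 34 in α9−/− mice, beside 5.85% and 7.39% of all probe sets. The genes called in neither therefore depend on the scale.

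Of the 46 probe sets, 33 had a mean log2 signal above 12, 11 lay between 7 and 12, and 2 lay under 7 (Rpl3l at 5.83 and Rps16 at 3.49). A low signal at a probe set does not say that the gene is weakly expressed, since levels of different probe sets cannot be set against each other. Of these probe sets, 13 carry a suffix (_x_at) for probes that can also bind other sequences. The targeted gene, Chrna9, gave low signal at its 3 probe sets in all 24 arrays (3.24 to 6.33). It was called different between genotypes at no age (lowest adjusted p = 0.0624), and these probe sets therefore do not check the genotype labels. Cochlear fibrocyte and supporting cell markers had a mean log2 signal of 11.1 to 11.75 over all arrays, and the 6 hair cell markers one of 6.20 to 6.97. In 5 arrays, the control probe set at the 3′ end of Gapdh, a housekeeping enzyme, exceeded that at the 5′ end by 6.30 to 7.69 on the log2 scale. At P13 they were replicates 1 and 2 of wild type, at P3 replicate 1 of wild type and replicate 2 of the knockout, and at P60 replicate 1 of wild type. The other 19 arrays reached at most 2.43.

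Some ribosomal protein transcripts were lower in the mature cochlea than in the newborn cochlea, and Rpl3l rose in both genotypes. On values normalized by quantiles over all arrays, 20 of the 46 genes were called in neither genotype. From P3 to P60, 17 of the 46 genes fell and 1 rose in wild type, and 20 fell and 1 rose in α9−/− mice (limma, adjusted p under 0.05). Among all probe sets, 6.12% were called lower in wild type and 8.02% in α9−/− mice, and 7.6% and 6.29% were called higher. Among all singly named genes at their brightest probe sets, 8.07% and 11.1% were called lower. Among the 291 other genes whose mean signal was also above 12, 17.5% and 19.6% were called lower. The median log2 difference of the 46 genes was -0.49 in wild type and -0.46 in α9−/− mice, against 0.07 and 0.08 for the other bright genes and -0.04 and -0.06 for all probe sets. The difference was negative in 40 of 46 genes in wild type and in 41 of 46 in α9−/− mice. Both subunits took part, with 7 of 22 small subunit genes and 10 of 24 large subunit genes lower in wild type, and 10 of 22 and 10 of 24 in α9−/− mice.

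**Figure D1:**
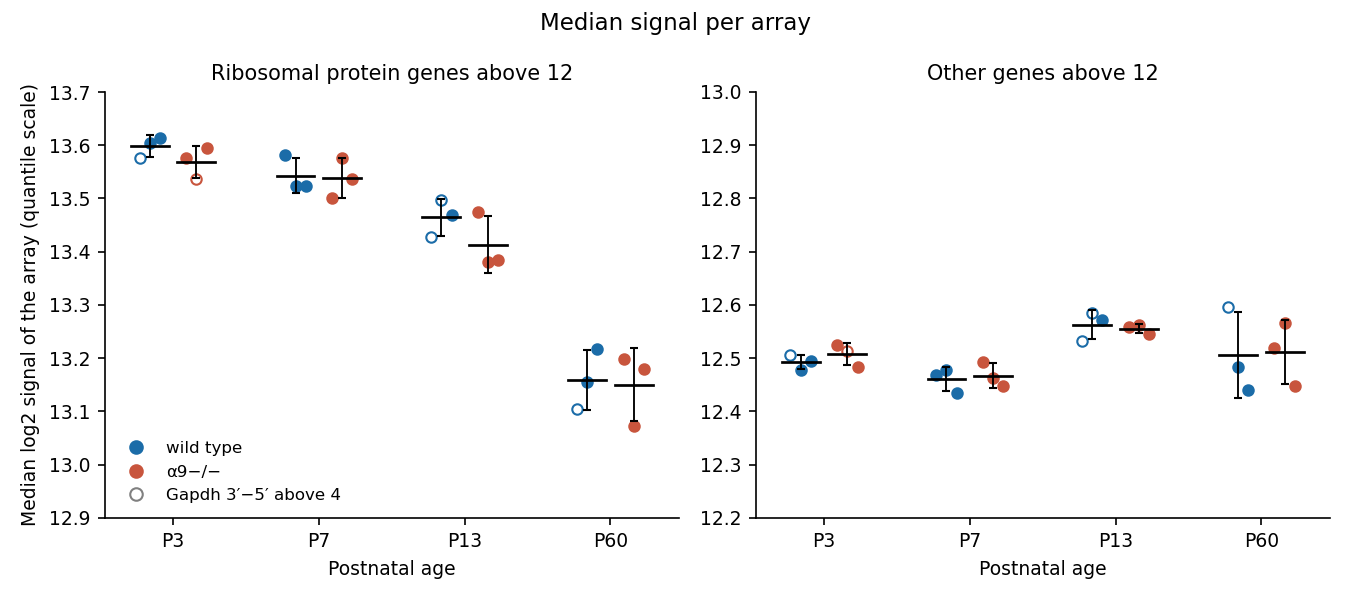
Median log2 signal per array of the 33 ribosomal protein genes above 12 (left) and of 291 other genes above 12 (right), by age, on a scale normalized by quantiles over all arrays. Both vertical axes span the same distance. Points are arrays, open where Gapdh 3′ exceeds 5′ by more than 4, and bars give the mean and SD of 3. At P60 all ribosomal protein medians lie between 13.07 and 13.22, below every earlier array (13.38 to 13.61), while the other bright genes stay between 12.44 and 12.60.

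On this scale, the median signal of the 33 bright genes read 13.58, 13.61 and 13.61 in the wild type arrays of P3 and 13.10, 13.15 and 13.22 in those of P60. The α9−/− arrays read 13.58, 13.54 and 13.60 at P3 and 13.20, 13.07 and 13.18 at P60. The ages did not overlap in either genotype. Of the single genes, 26 of 46 did not overlap between P3 and P60 in wild type and 35 of 46 in α9−/− mice, beside 23.8% and 31.8% of all probe sets. The values of P13, between 13.38 and 13.497, lay between those of P7 (13.501 to 13.58) and P60, close to those of P7 but without overlap.

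Rplp0 (chr5:115559467-115563729) is the core of the acidic stalk. It read 13.40, 13.47 and 13.66 in wild type at P3 and 11.44, 12.57 and 12.80 at P60. In α9−/− mice it read 13.44, 13.41 and 13.61 at P3 and 12.40, 12.22 and 12.88 at P60. All 6 mature arrays lay below all 6 newborn arrays, with P60 wild type replicate 1, one of the arrays with low Gapdh 5′ signal, lowest. The log2 difference was -1.24 (SE 0.26, adjusted p = 0.00223) in wild type and -0.99 (SE 0.26, adjusted p = 0.0124) in α9−/− mice. The α9−/− call was lost without P60 replicate 1 (adjusted p = 0.0515) or 2 (adjusted p = 0.0666). Rplp2, which pairs with Rplp1 on the stalk, differed by -0.11 and -0.25 and was called in neither genotype, and Rplp1 was not among the genes with a probe set of their own.

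Rps19 (chr7:24884592-24889811), a small subunit protein whose gene is mutated in Diamond-Blackfan anemia, read 12.98, 13.08 and 13.15 in wild type at P3 and 10.88, 12.16 and 12.27 at P60. In α9−/− mice it read 13.13, 12.97 and 12.89 at P3 and 11.90, 11.75 and 12.08 at P60. The ages did not overlap. The log2 difference was -1.30 (SE 0.25, adjusted p = 0.00134) in wild type and -1.09 (SE 0.25, adjusted p = 0.00583) in α9−/− mice. Rpl11 (chr4:136049354-136053393), which also binds Mdm2 when ribosome assembly is disturbed, read 13.06, 13.30 and 13.19 in wild type at P3 and 12.47, 12.37 and 12.50 at P60. It fell by 0.74 (SE 0.15, adjusted p = 0.0025) in wild type and by 0.80 (SE 0.15, adjusted p = 0.00132) in α9−/− mice on the log2 scale. From P7 to P13 its difference was -0.56 in wild type (adjusted p = 0.0212) and -0.66 in α9−/− mice (adjusted p = 0.0222). Each of these calls was lost in 5 of 13 alternatives, with an adjusted p of up to 0.212 in wild type, when the arrays of low Gapdh 5′ signal were left out, and of up to 0.158 in α9−/− mice, without P13 replicate 3. Its means at P13 and P60 were 12.39 and 12.45 in wild type.

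Rpsa, the laminin receptor precursor and a small subunit protein, fell by 0.61 (SE 0.16) in wild type and 0.58 (SE 0.16) in α9−/− mice. Both calls were lost when the arrays of low Gapdh 5′ signal were left out (adjusted p = 0.148 and 0.0584). They were also lost for the mean of its probe sets (adjusted p = 0.144 and 0.213), and each was lost in 4 of 13 alternatives. Rps2, at the mRNA entry of the small subunit, fell by 0.63 and 0.54. Rps26, at the mRNA exit, fell by 0.62 and 0.77, and its arrays read 13.52 to 13.69 at P3 and 12.74 to 13.16 at P60 over both genotypes. Rpl10a fell by 0.57 and 0.71, and Rpl6 by 0.51 in each genotype. Rpl10a spread little, with 13.42 to 13.53 at P3 and 12.68 to 13.10 at P60 over both genotypes.

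The genes lower in both genotypes were 12 in number, namely Rplp0, Rps19, Rpl11, Rpsa, Rps2, Rps26, Rpl10a, Rpl6, Rpl12, Rpl14, Rpl39l and Rps4l. They made up 70.6% of the wild type calls and 60% of the α9−/− calls. Of these, 7 kept their call in both genotypes in every alternative setting in which they were tested (Rps19, Rpl11, Rps2, Rps26, Rpl10a, Rpl12 and Rpl39l). The genes called in wild type alone were Rpl7, Rpl7a, Rpl27, Rps3 and Rps9, and those called in α9−/− mice alone were Rpl35, Rpl37, Rpl41, Rps4x, Rps6, Rps18, Rps25 and Rps27l. Of these calls in a single genotype, only those of Rpl35, Rpl37 and Rps6 were kept in every alternative setting. The genotype by age fits from P3 to P7, P7 to P13 and P13 to P60 called none of the genes called in a single genotype, and the direct difference of the P3 to P60 changes was not tested.

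Rps9, which lies near the decoding site and helps keep it accurate, read 13.08, 13.32 and 13.30 in wild type at P3 and 10.72, 12.74 and 12.78 at P60. Its fall of 1.15 (SE 0.37, adjusted p = 0.0423) was -0.47 without P60 wild type replicate 1 (adjusted p = 0.213). In α9−/− mice it read 13.29, 13.14 and 13.34 at P3 and 12.82, 12.76 and 12.81 at P60, a log2 difference of -0.46 (SE 0.37, adjusted p = 0.469). Rps6, the small subunit protein phosphorylated by S6 kinases downstream of mTOR, read 9.78, 10.02 and 9.95 in α9−/− mice at P3 and 8.93, 9.0 and 8.86 at P60, a fall of 0.99 (SE 0.25, adjusted p = 0.0107). In wild type it read 10.63, 10.15 and 10.15 at P3 and 10.23, 9.45 and 9.53 at P60, where the ages overlapped and the difference was -0.57 (SE 0.25, adjusted p = 0.152). Rps3, also known as a DNA repair protein, differed by -0.45 (adjusted p = 0.0455) in wild type and by -0.42 (adjusted p = 0.0585) in α9−/− mice. The wild type call of Rps3 was lost in 7 of 13 alternatives, with -0.30 (adjusted p = 0.196) without P60 replicate 1 and -0.25 (adjusted p = 0.326) when the arrays of low Gapdh 5′ signal were left out.

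**Figure D2:**
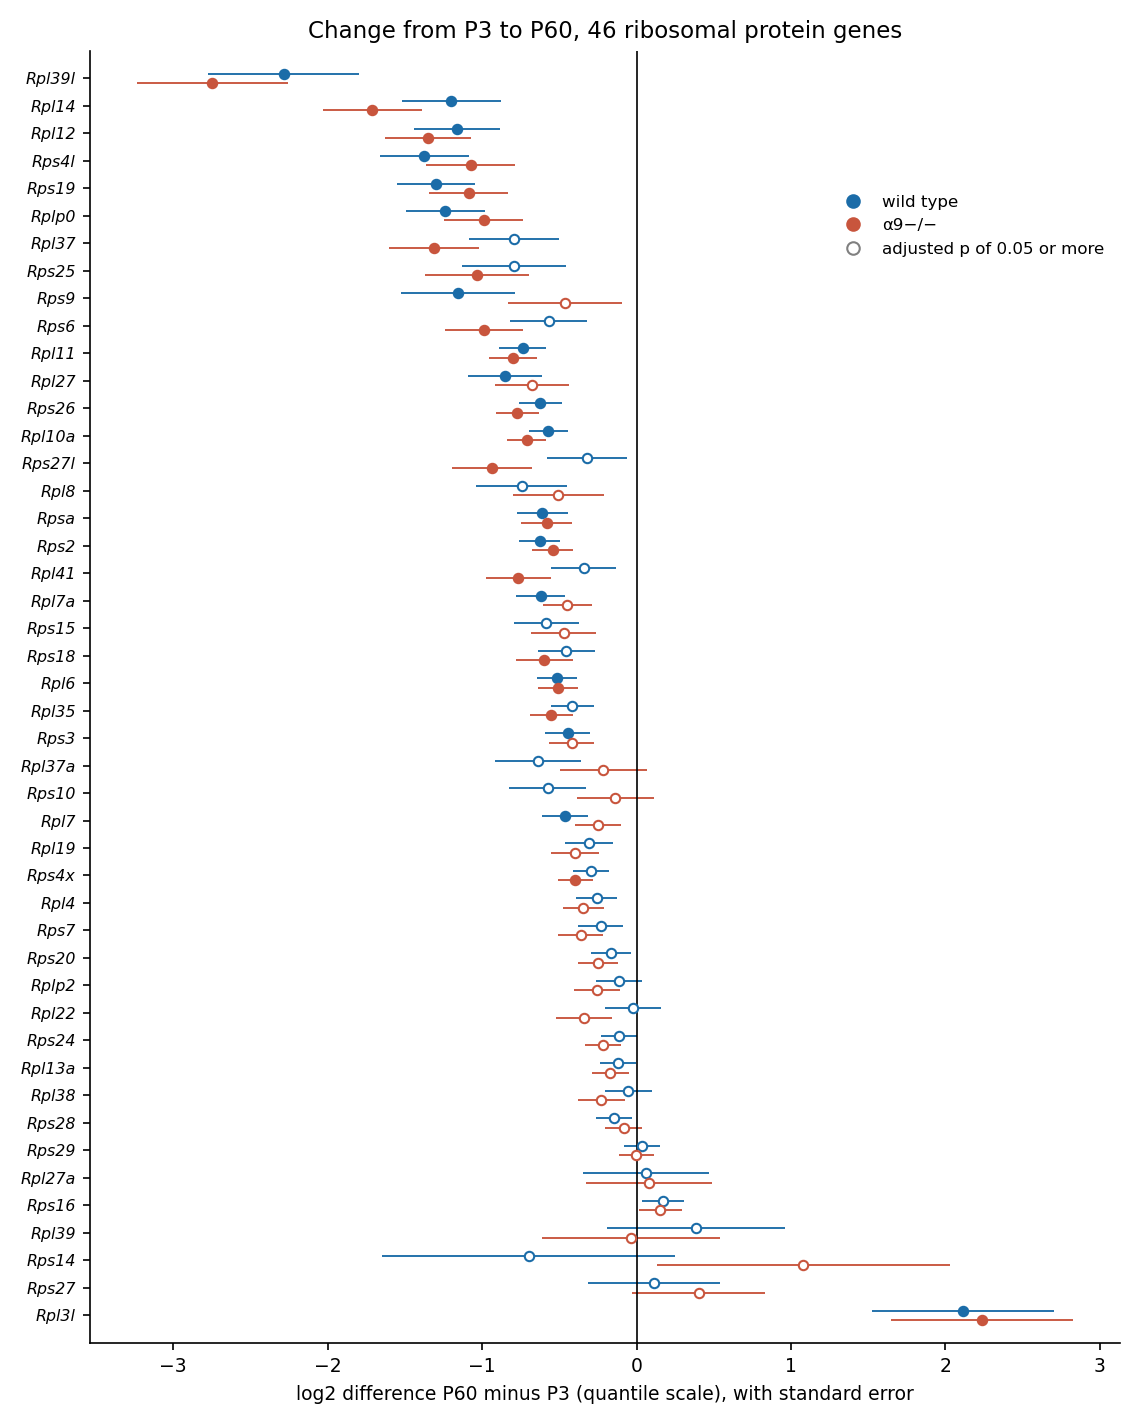
Log2 difference P60 minus P3 (horizontal axis, with standard error) of each of the 46 ribosomal protein genes in wild type and α9−/− mice, 3 arrays per age and genotype. Filled points have an adjusted p under 0.05. Most genes lie left of 0, with Rpl39l at -2.29 and -2.75, and Rpl3l alone stands far to the right at 2.12 and 2.24.

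The 20 genes called in neither genotype on the quantile scale were not all of low signal. Rps29, a zinc-binding protein of the small subunit head, read 14.28, 14.26 and 14.20 in wild type at P3 and 14.32, 14.24 and 14.28 at P60, and its values over all 24 arrays spanned 0.30. Quantile normalization gives the brightest probe sets of every array nearly the same values. As deposited, Rps29 read 14.22, 14.17 and 14.15 at P3 and 14.08, 14.03 and 14.19 at P60 in wild type. On the quantile scale, Rpl13a, which takes part in interferon-dependent silencing of mRNAs, differed by -0.12 and -0.17. Rpl38, which is needed for the translation of Hox mRNAs in the embryo, differed by -0.05 in wild type and -0.23 in α9−/− mice, and Rps24 by -0.11 and -0.22. Rpl22, a large subunit protein that mice can lose without losing the ribosome, differed by -0.02 and -0.34. As deposited, the mean of Rpl13a went from 13.69 at P3 to 13.24 at P60 in wild type and from 13.60 to 13.09 in α9−/− mice. That of Rps24 went from 13.72 to 13.28 and from 13.79 to 13.23, and that of Rpl38 from 13.92 to 13.62 and from 13.93 to 13.40. The small differences of these genes therefore hold for the quantile scale only.

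Several of the genes are paralogs of another ribosomal protein gene. Rpl39l (chr16:10170197-10174911), paralog of the small exit tunnel protein Rpl39, read 9.48, 8.18 and 8.62 in wild type at P3 and 7.46, 5.62 and 6.34 at P60. In α9−/− mice it read 9.27, 9.37 and 7.80 at P3 and 5.77, 6.20 and 6.24 at P60. The ages did not overlap in either genotype. It fell by 2.29 (SE 0.49, adjusted p = 0.00285) in wild type and fell by 2.75 (SE 0.49, adjusted p = 0.000624) in α9−/− mice, more than any other of the 46 genes. Rpl39 itself was dim at its probe set and differed by 0.38 (SE 0.57) and -0.04 (SE 0.57), neither of which was called. The testis markers Tnp1, Prm1 and Prm2 had a mean signal of 4.83 to 5.59 in all groups, and 0 of 3 were called in either genotype from P3 to P60.

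Rpl3l (chr17:24727826-24736143), the striated muscle paralog of Rpl3, was the 1 gene that rose. It read 6.53, 5.05 and 5.10 in wild type at P3 and 7.5, 6.82 and 8.70 at P60, and 5.11, 5.09 and 5.58 in α9−/− mice at P3 and 6.73, 7.31 and 8.45 at P60. The mature arrays lay above the newborn arrays in both genotypes, with a log2 difference of 2.12 (SE 0.59, adjusted p = 0.019) in wild type and 2.24 (SE 0.59, adjusted p = 0.0138) in α9−/− mice. In α9−/− mice it rose by 2.75 from P13 to P60 (SE 0.59, adjusted p = 0.0057). The wild type call was lost without P3 replicate 2 or 3 (adjusted p = 0.0882 and 0.0858) or P60 replicate 3 (adjusted p = 0.106), and the α9−/− call without P60 replicate 3 (adjusted p = 0.0772). The mean signal of 5 skeletal muscle markers was 7.57 to 10.35 in wild type and 8.17 to 10.76 in α9−/− mice at P3, and 9.36 to 12.72 and 10.57 to 12.48 at P60. Of them 1 of 5 was called higher at P60 in each genotype, namely Myh4, the fast myosin heavy chain, whose mean went from 4.68 to 11.12 in wild type. The part of muscle RNA in the rise of Rpl3l was not tested. Rpl3 was not among the genes with a probe set of their own.

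Rps4l, paralog of the X-linked Rps4x, read 10.05, 10.28 and 10.58 in wild type at P3 and 8.37, 9.34 and 9.07 at P60, a fall of 1.37 (SE 0.29, adjusted p = 0.0025). In α9−/− mice it fell by 1.07 (SE 0.29, adjusted p = 0.0156), a call lost in 4 of 14 alternatives. In wild type it differed by -1.54 from P7 to P13 (SE 0.29, adjusted p = 0.00154), a call kept in all 14 alternatives. In α9−/− mice its mean went from 10.36 to 9.37 over that step, which was not called. The genotype by age term was 0.55 (SE 0.41, adjusted p = 0.648). Rps4l was lower in the array of low Gapdh 5′ signal than in the others of its group. The differences were -0.38 in P3 wild type, -0.85 in P3 α9−/− and -0.84 in P60 wild type. Rps4x read 13.87 to 13.96 at P3 and 13.48 to 13.72 at P60 over both genotypes, with log2 differences of -0.29 (adjusted p = 0.102) and -0.40 (adjusted p = 0.0243). The α9−/− call of Rps4x was lost in 7 of 13 alternatives, with -0.28 (adjusted p = 0.219) for the mean of its probe sets. Rps27l, a p53 target and paralog of Rps27, differed by -0.32 (adjusted p = 0.50) in wild type and fell by 0.94 (adjusted p = 0.0192) in α9−/− mice, a call lost in 4 of 13 alternatives, while Rps27 differed by 0.11 and 0.40 and was not called.

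**Figure D3:**
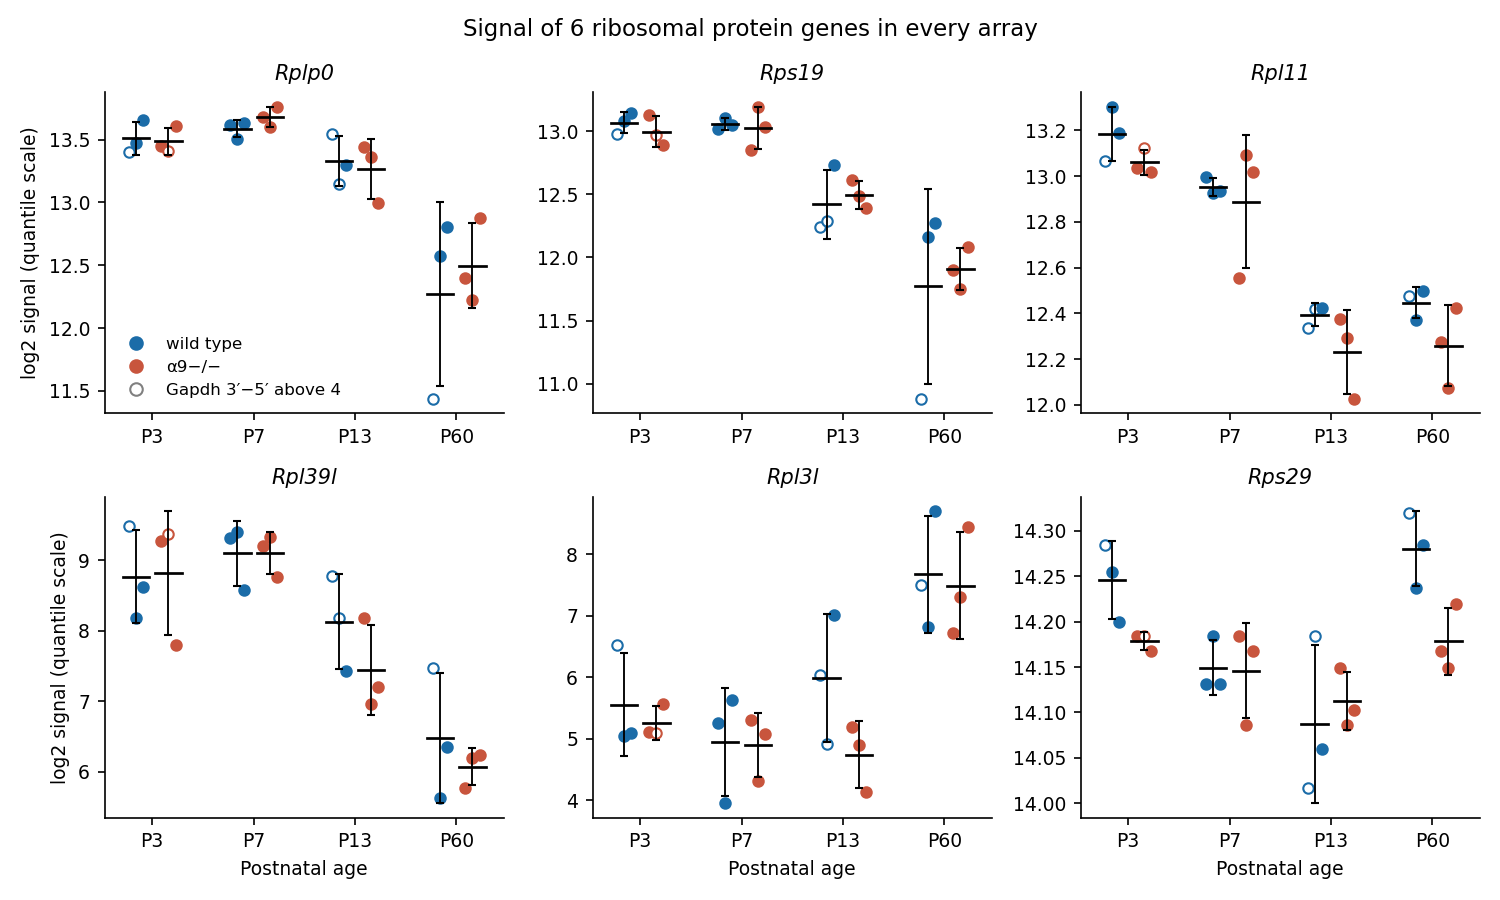
Log2 signal (vertical axes, quantile scale) of Rplp0, Rps19, Rpl11, Rpl39l, Rpl3l and Rps29 in every array by age. Points are arrays, open where Gapdh 3′ exceeds 5′ by more than 4, and bars give the mean and SD of 3. The axes differ between genes: Rpl39l spans from 9.48 to 5.62, and Rps29 stays within 0.30.

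Among genes of the large subunit with a dimmer probe set, Rpl14 (chr9:120571517-120574653) read 9.15, 8.18 and 8.06 in wild type at P3 and 8.0, 6.95 and 6.85 at P60, and 8.41, 8.77 and 7.90 in α9−/− mice at P3 and 6.66, 6.95 and 6.34 at P60. It fell by 1.2 (SE 0.32, adjusted p = 0.0153) in wild type and fell by 1.71 (SE 0.32, adjusted p = 0.00104) in α9−/− mice. The highest wild type value at both ages was that of the array with low Gapdh 5′ signal, and the wild type call was lost without P3 replicate 1 (adjusted p = 0.0844), P60 replicate 2 (adjusted p = 0.067) or P60 replicate 3 (adjusted p = 0.0766). Rpl12, near the base of the stalk, fell by 1.16 (SE 0.28) and 1.35 (SE 0.28). Rpl37 fell by 1.31 (SE 0.29, adjusted p = 0.00388) in α9−/− mice and differed by -0.79 (SE 0.29, adjusted p = 0.0771) in wild type.

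Between neighbouring ages fewer genes were called. The median log2 differences from P3 to P7, P7 to P13 and P13 to P60 were -0.07, -0.07 and -0.26 in wild type and -0.01, -0.21 and -0.25 in α9−/− mice. For all probe sets the later medians were 0.04 and -0.06 in wild type and -0.04 and -0.04 in α9−/− mice. From P3 to P7, 0 of 46 genes were called in either genotype, where 0.997% of all probe sets were called in wild type and 1.23% in α9−/− mice, and at an unadjusted p under 0.05 1 gene was lower in wild type and 0 differed in α9−/− mice, where 11.1% and 11.8% of all probe sets differed. From P7 to P13, 2 genes fell in wild type (Rps4l and Rpl11), beside 5.59% of all probe sets called lower, a share no smaller than that of the members. In α9−/− mice 2 fell (Rpl37, by 1.28, and Rpl11), beside 0.913%, and leaving out single arrays gave 0 to 3. From P13 to P60, 6 genes fell in wild type, beside 6.99% of all probe sets. The log2 differences were -1.06 for Rplp0, -1.65 for Rpl39l, -1.09 for Rpl14, -1.01 for Rpl12, -0.58 for Rps26 and -0.49 for Rpl6. The call was lost in 5 of 14 alternatives for Rpl39l, in 4 of 14 for Rpl14 and for Rpl12, and in 2 of 14 for Rplp0. It was lost in 5 of 13 for Rpl6 and in 1 of 13 for Rps26. Without P60 replicate 2, Rpl39l had an adjusted p of 0.165. In α9−/− mice 2 fell (Rps26 by 0.51 and Rps2 by 0.45), a share near the 3.59% of all probe sets, and Rpl3l rose, beside 3.69% called higher. The Rps2 call was lost on leaving out any of the 6 arrays (adjusted p 0.0602 to 0.136), and the Rps26 call on leaving out any but P60 replicate 2 (adjusted p 0.0601 to 0.125). The wild type count for P13 to P60 was 3 when the arrays of low Gapdh 5′ signal were left out, and the α9−/− counts were 6 for P7 to P13 and 9 for P13 to P60. Of all probe sets, 3.94%, 2.36% and 5.8% were called lower in these fits.

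The counts from P3 to P60 depended on the scale, and their direction did not. On the values as deposited, 30 genes were called lower in wild type and 34 in α9−/− mice, beside 5.85% and 7.39% of all probe sets, with medians of -0.73 and -0.74 against 0.01 and -0.05 for all probe sets. With each array centred on its median, 30 and 36 were called lower, beside 6.67% and 10.4%, with medians of -0.79 and -0.87 against -0.05 and -0.18. As deposited, the median of all probe sets moved by 0.27 and 0.15 from P7 to P13 and by -0.36 and -0.34 from P13 to P60, for wild type and α9−/− mice in turn. When the 5 arrays of low Gapdh 5′ signal were left out, 16 genes were lower in wild type and 20 in α9−/− mice. Beside them, 8.14% and 8.25% of all probe sets were called lower. The 46 genes had 54 further probe sets of their own, of which 18 were called lower in wild type and 24 in α9−/− mice, with 0 called higher and medians of -0.59 and -0.58.

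Other genes of protein synthesis were taken from lists. Of all singly named genes, 8.07% were called lower from P3 to P60 in wild type and 11.1% in α9−/− mice. Of 51 ribosome biogenesis genes, 11 fell in wild type and 20 in α9−/− mice from P3 to P60, with 0 called higher and medians of -0.48 and -0.55. Among them Nhp2, of the box H/ACA particles that modify rRNA, fell by 1.12 and 1.41, and Fbl, the rRNA methyltransferase fibrillarin, fell by 0.94 in wild type. Of 36 initiation factors, 9 and 11 fell and 2 and 1 rose, with log2 differences of -1.7 and -1.96 for Eif4e2, a cap-binding protein that represses translation, and of 1.54 and 0.95 for Eif5a2. Of 16 other mRNAs with a terminal pyrimidine tract, 5 and 7 fell, among them Nap1l1, a histone chaperone, by 1.18 and 1.07. Fau, whose product is processed to the ribosomal protein eS30, differed by -0.57 (adjusted p = 0.112) and -0.38 (adjusted p = 0.303).

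Of 76 mitochondrial ribosomal protein genes, 2 fell and 2 rose in wild type and 7 fell and 2 rose in α9−/− mice. The shares called lower were smaller than the 8.07% and 11.1% of all singly named genes. The medians were -0.26 and -0.31, also below those of all probe sets. Mrps5 fell by 1.31 and Mrpl11 by 0.80 in wild type, and Mrps35 fell by 0.93 and Mrpl17 by 0.72 in α9−/− mice. Mrpl44 rose by 1.53 and 1.11 on the log2 scale, and Mrps6 by 1.22 and 0.86. Of 9 elongation and release factors, 1 and 2 fell, and Eef1a2, the form of neurons and muscle, rose by 1.71 in α9−/− mice. Of 17 regulators, Myc, a transcription factor that drives ribosomal genes, fell by 1.14 in wild type (SE 0.24, adjusted p = 0.00231) and by 1.85 in α9−/− mice (SE 0.24, adjusted p = 2.5e-05). Mycn fell by 1.08 and 1.61, and Mxi1, a Max partner that opposes Myc, rose by 0.76 and 0.74.

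Markers of several cell types also changed over the same interval. Of all probe sets, 6.12% were called lower and 7.6% higher in wild type, and 8.02% and 6.29% in α9−/− mice. From P3 to P60, 4 of 4 cartilage markers fell in both genotypes (list means of 11.40 to 12.77 at P3 and 7.85 to 8.60 at P60). Both osteoblast markers fell (13.82 to 14.02 and 12.05 to 12.99), and 6 of 6 neutrophil markers rose (7.00 to 8.40 and 11.86 to 12.36). Of 4 proliferation markers, 2 fell and 1 rose in each genotype, with means of 10.01 to 10.45 and 9.34 to 10.04. Of 5 spiral ganglion neuron markers, 3 rose in wild type and 2 in α9−/− mice, and of 5 cerebellar markers 2 and 3 rose, with group means of 6.83 and 7.18 at P3 and 9.51 and 10.98 at P60. The part of these cells in the ribosomal protein changes was not tested.

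Loss of the α9 subunit was compared within each age. None of the 46 genes was called at P3, P7, P13 or P60 on the deposited scale, where 0%, 0.00444%, 5.52% (3.47% higher and 2.04% lower) and 0% of all probe sets were called. The share at P13 depended on the fit, and wild type replicates 1 and 2 of that age were arrays of low Gapdh 5′ signal. With all 24 arrays in 1 fit, 0.16% of all probe sets were called higher at P13 and 0.206% lower, and 0 of the 46 genes. The median log2 difference between α9−/− and wild type was -0.03 at P3, 0.02 at P7, -0.11 at P13 and -0.11 at P60, against 0.00, 0.01, -0.16 and -0.08 for all probe sets. At an unadjusted p under 0.05, 0 genes differed at P3 and at P7, 1 was higher and 6 lower at P13, and 1 was lower at P60. At the same threshold 1.95%, 1.59%, 27.5% and 5.16% of all probe sets differed, so the 7 of 46 genes at P13 were a smaller share than that of all probe sets. Genotype by age fits called 0 of 46 genes at each step, beside 0%, 0.00222% and 0% of all probe sets, and at an unadjusted p under 0.05 only Rpl14 from P7 to P13 (-0.97, SE 0.45, adjusted p = 0.558), where 1.37%, 8.89% and 4% of all probe sets passed. The median standard error of a genotype difference was 0.17 to 0.24 on the log2 scale, and with 3 pools a group even differences of several standard errors, such as that of Rpl14 at P13, were not called.

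**Figure D4:**
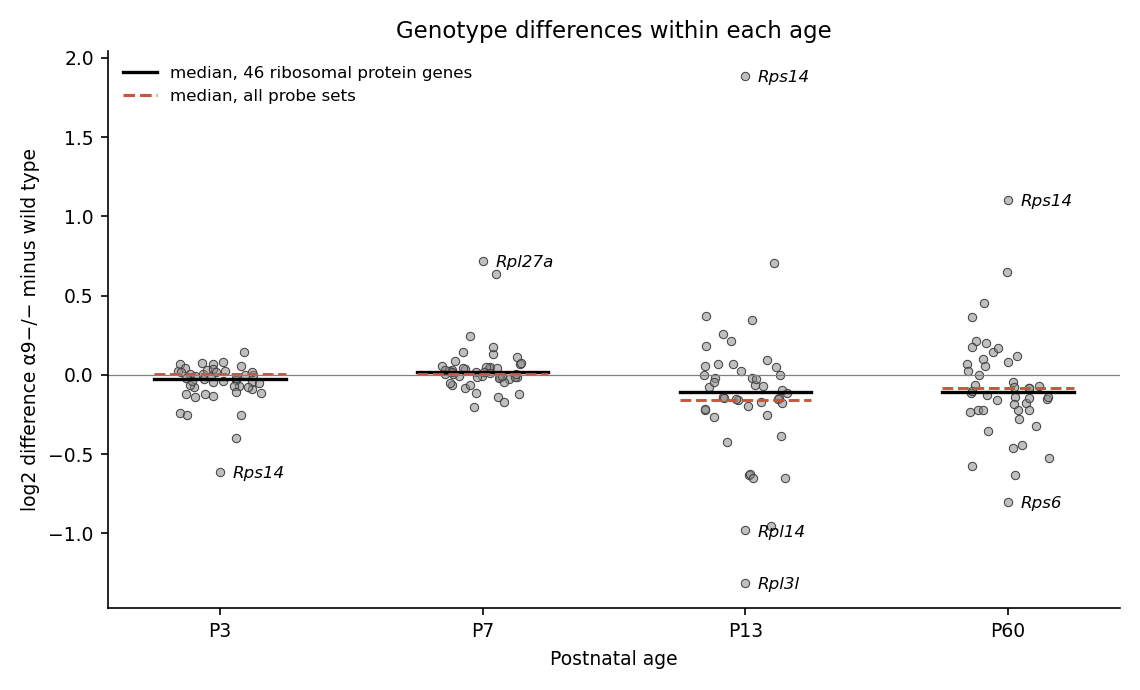
Log2 difference α9−/− minus wild type (vertical axis, deposited scale) of the 46 ribosomal protein genes at each age, 1 point per gene, with no error drawn. Solid lines give the median of the 46 genes and dashed lines the median of all probe sets. The medians lie close to 0 at P3 and P7, and Rps14 at P13 stands farthest from 0 at 1.88.

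At P13, Rpl14 came closest to a call. It read 8.94, 8.55 and 8.19 in wild type and 7.75, 7.42 and 7.58 in α9−/− mice, without overlap, a log2 difference of -0.98 (SE 0.23, adjusted p = 0.0543). Rps25, of the small subunit head, read 9.07, 8.97 and 8.53 against 8.16, 8.25 and 8.20 (-0.65, SE 0.19, adjusted p = 0.0914). Rps27l read 12.47, 12.35 and 11.94 against 11.81, 11.55 and 11.50 (-0.63, SE 0.20, adjusted p = 0.107), and Rpl37 10.10, 10.34 and 9.65 against 9.57, 9.41 and 9.25 (-0.62, SE 0.22, adjusted p = 0.129). The α9−/− arrays lay below the wild type arrays in each of these genes, and the genotypes did not overlap in 15 of the 46 genes and in 33.6% of all probe sets. Rpl12 (-0.42, SE 0.17, adjusted p = 0.161) did not overlap either, while Rpl3l (-1.31, SE 0.52, adjusted p = 0.16) overlapped. With array weights 9 genes were called lower and 1 higher, beside 24.3% and 15.5% of all probe sets. Without wild type replicate 3, which leaves the wild type arrays of low Gapdh 5′ signal, 4 were lower and 1 higher, beside 5.88% and 8.22%.

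Rps14, a small subunit protein at the mRNA exit whose gene is lost in the human 5q- syndrome, went the other way. It read 10.03, 12.55 and 13.64 in wild type and 13.91, 13.98 and 13.98 in α9−/− mice at P13, a difference of 1.88 (SE 0.80, adjusted p = 0.182). Wild type replicates 1 and 2, the arrays of low Gapdh 5′ signal, were its lowest. On the quantile scale it read 12.27, 10.39 and 10.18 in the arrays of low Gapdh 5′ signal of P3 wild type, P3 α9−/− and P60 wild type, and 13.54 to 13.97 in all 19 other arrays. A second Rps14 probe set differed by 1.59 at P13 (SE 0.57, adjusted p = 0.131).

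**Figure D5:**
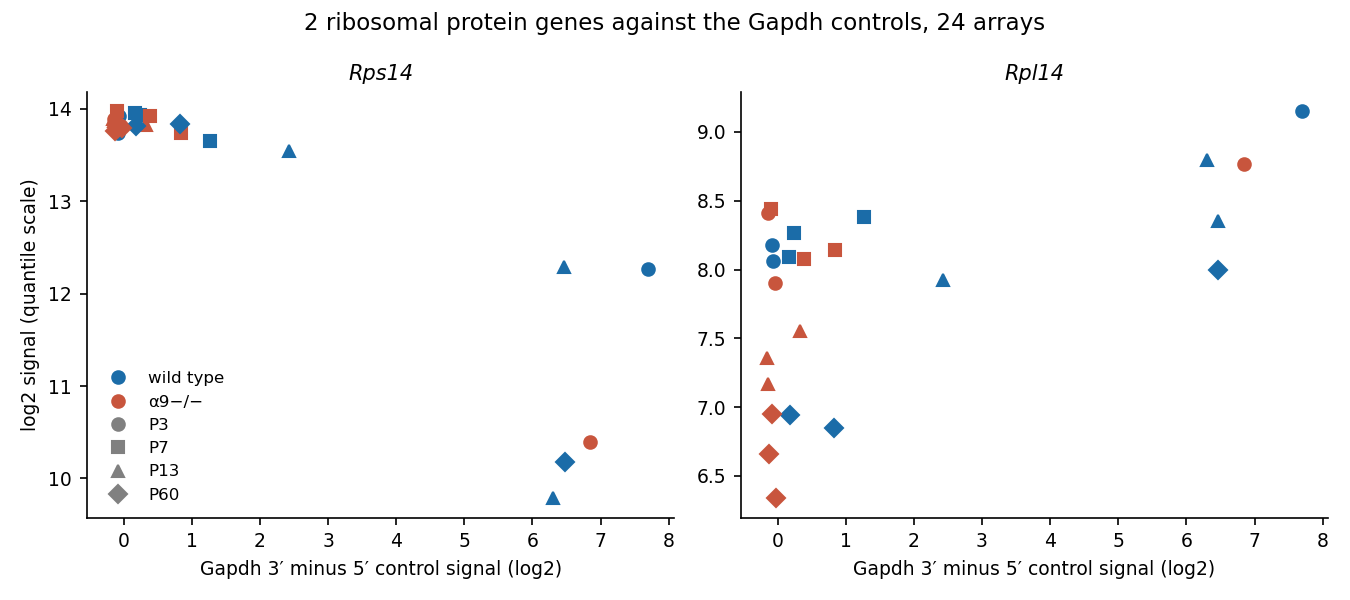
Log2 signal (quantile scale) of Rps14 and Rpl14 against the Gapdh 3′ minus 5′ control signal (log2, horizontal axes) in 24 arrays, by age and genotype. In the 5 arrays above 6.30, Rps14 is below all others, and Rpl14 lies above the other arrays of the same age and genotype.

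The P3 and P60 groups with 1 such array allowed the array to be set against the other 2 of its group. For Rps14 the log2 difference was -1.56 in P3 wild type, -3.46 in P3 α9−/− and -3.64 in P60 wild type. Rpl14 was higher in it by 1.03, 0.61 and 1.10, Rps25 by 1.31, 0.52 and 1.00, Rpl37 by 0.83, 0.66 and 0.88, Rpl12 by 0.59, 0.37 and 1.13, and Rps27l by 0.52, 0.34 and 0.91. Over the 46 genes, 12 were lower and 16 higher in it in all 3 groups, with medians of 0.08, 0.04 and 0.02. At P13 such arrays were 2 of 3 in wild type and 0 of 3 in α9−/− mice, and there the wild type mean was the lower one for Rps14 and the higher one for the other 5 genes. The part of the RNA state in the P13 differences was not tested. The skeletal muscle markers, of which 0 of 5 were called at P13, had means of 7.18 to 10.41 in wild type and 7.58 to 7.91 in α9−/− mice at that age, and the cerebellar markers, of which 0 of 5 were called, 5.93 to 9.53 and 5.28 to 7.88. The neutrophil markers had means of 12.37 to 12.95 in wild type and 11.89 to 12.17 in α9−/− mice, without overlap, and 1 of 6 was called (Ltf, lactoferrin, -1.03, adjusted p = 0.0489). Of the 6 hair cell markers 1 was called, Pou4f3, a hair cell transcription factor, which was 1.4 higher in α9−/− mice (adjusted p = 0.0206). Its mean log2 signal was low (5.27). The other hair cell markers were not called. Of these, Gfi1, Myo7a, Myo15 and Slc26a5 were lower in α9−/− mice (-0.67, -0.53, -0.35 and -0.34), and Otof differed by 0.07. The part of these cells in the P13 differences was not tested.

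At the other ages the largest differences were not called. At P60, Rps6 read 10.11, 9.35 and 9.41 in wild type and 8.81, 8.89 and 8.76 in α9−/− mice, a difference of -0.80 (SE 0.26, adjusted p = 0.885). The genotypes did not overlap in Rps6 or in 2 of the other genes, beside 11% of all probe sets, and the highest wild type value of Rps6 was that of replicate 1. Rps14 differed by 1.11 (SE 0.89) and Rps9 by 0.65 (SE 0.53) at P60. At P3 the largest were Rps14 (-0.61, SE 1.00), Rps6 (-0.40, SE 0.22) and Rpl27a (-0.26, SE 0.49), and at P7 Rpl27a (0.72, SE 0.38), Rpl39 (0.63, SE 0.71) and Rpl12 (0.24, SE 0.24). Among the other lists of protein synthesis, 1 gene was called between genotypes, Eef1a2 at P13, which was 1.38 higher in α9−/− mice (SE 0.25, adjusted p = 0.029). That comparison includes wild type replicates 1 and 2, arrays of low Gapdh 5′ signal, and the call was not rerun under the alternatives.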

How the data were processed

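Total RNA of pooled cochleae was hybridized to 24 arrays, and the authors deposited log2 values per probe set, made, per the labels and methods, by RMA background correction, quantile normalization and probe summarization in R. Of the probe sets, 45037 that are not controls were tested. Probe sets were named from the platform's gene annotation, and those naming several genes were not assigned. Genotypes were compared within each age on the deposited log2 values (6 arrays). Because array medians differ between ages, age changes and genotype by age terms were fitted to values normalized again by quantiles over all arrays, in 1 fit of 8 groups. Tests were those of limma 3.58.1 in R 4.3.3 with the Benjamini-Hochberg adjustment over all probe sets, called at an adjusted p under 0.05 with no fold threshold, and were tested on simulated data. The number of arrays limits the precision. Named genes are the paralogs, stalk genes, genes with roles outside the ribosome, up to 6 called genes of largest change per comparison (or the 3 of largest difference where fewer than 3 were called), and up to 4 called genes per list, of which a selection is printed. Other genes named, and the genes of the start site windows, were chosen after their values were seen. The genes and lists were chosen with earlier results of these data known.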

Additional observations from a re-analysis of the deposited data

How the results depend on the processing

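No called age difference of a ribosomal protein gene changed direction under the alternatives run, and of their recomputed values 586 kept the call and 115 lost it. The called genes of the other lists and of the cell type markers were not among them. Counts of ribosomal protein genes called moved more. On values as deposited, the genes lower were 30 in wild type and 34 in α9−/− mice from P3 to P60, 27 and 27 from P13 to P60, and 1 in α9−/− mice from P7 to P13. Of all probe sets, 5.85% and 7.39%, then 23% and 12.6%, and 0.451% were called lower in these comparisons. With arrays centred on their medians the genes lower were 30 and 36, then 15 and 8, and from P7 to P13 6 and 4. The shares of all probe sets were 6.67% and 10.4%, then 10.5% and 4.67%, and 4.98% and 0.864%. With array weights the genes lower were 27 in wild type from P3 to P60, 18 and 17 from P13 to P60 (2 higher in wild type), and 11 and 10 from P7 to P13. The shares of all probe sets were 15%, then 23.7% and 11.6% (18.1% higher in wild type), and 18% and 8.69%. Array weights also gave 1 higher and 9 lower for the genotypes at P13, beside 15.5% and 24.3% of all probe sets. In the genotype by age fits they gave 2 lower from P7 to P13 and 1 higher from P13 to P60. There 5.28% of all probe sets were lower and 9.21% higher, shares no smaller than those of the members. With the mean of all probe sets of a gene, the genes lower were 26 in wild type and 29 in α9−/− mice from P3 to P60. From P13 to P60 they were 11 and 8. They were 6 in α9−/− mice from P7 to P13, and 1 for the genotypes at P13. Of all genes, 9.41% and 11.5%, then 9.33% and 6.04%, 2.22% and 3.65% were lower. The poly-A controls as a block also gave 1 lower for the genotypes at P13, beside 4.8% of all probe sets. The variance filter, which keeps only 15 of the genes, left 8 and 8 lower from P3 to P60, 1 in wild type from P7 to P13, and 1 higher in wild type and 0 lower in α9−/− mice from P13 to P60. Of all probe sets kept by the filter, the shares were 10.5% and 11.4%, 12.3%, and 10.1% and 7.95%. With 1 probe set per gene in the fit, 1 was higher in wild type from P13 to P60, and 4 were lower in α9−/− mice from P7 to P13 and 4 from P13 to P60. Of all genes in that fit, the shares were 6.9%, 2.23% and 6.38%. Leaving out the arrays of low Gapdh 5′ signal, a choice made with the data known, meant that 3 and 9 were lower from P13 to P60, and 6 in α9−/− mice from P7 to P13. The shares of all probe sets were 3.94% and 5.8%, and 2.36%.

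Leaving out 1 array at a time gave 12 to 18 genes lower and 0 to 1 higher in wild type from P3 to P60, and 13 to 18 lower and 0 to 1 higher in α9−/− mice. From P13 to P60 it gave 1 to 11 lower and 0 to 1 higher in wild type (11 without P60 replicate 1, 1 without P60 replicate 2) and 0 to 1 lower in α9−/− mice. From P7 to P13 it gave 1 to 3 lower in wild type and 0 to 3 in α9−/− mice. For the genotypes at P13 it gave 0 to 4 lower and 0 to 1 higher. The cause of these changes was not tested. A pairing of the samples by replicate number was not seen, with deviations of same-numbered arrays correlating between -0.63 and 0.58. With 3 arrays a group these correlations cannot decide whether the samples were paired. With the replicate number as a block, 16 and 21 genes were lower from P3 to P60, and from P13 to P60 1 was higher in wild type and 4 were lower in α9−/− mice. The shares of all probe sets were 6.61% and 8.67%, and 5.59% and 4%.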
